A study of Mus musculus with 12 samples.

Results

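The Hox cluster genes are the protein-coding genes of the HoxA, HoxB, HoxC and HoxD clusters, chosen by their gene symbols and not by their levels. They number 39 of the 52550 genes in the table, with 11 in HoxA, 10 in HoxB, 9 in HoxC and 9 in HoxD. RNA was sequenced from the mouse mammary cancer cell lines D2A1 and D2.OR, each grown for 7 days on plastic (2D) or on growth-factor-reduced Matrigel (3D), as 3 replicates per group (12 libraries). The 4 groups are D2A1 in 2D, D2A1 in 3D, D2.OR in 2D and D2.OR in 3D, the labels give no altered gene or added agent, and 10 wells of a line were pooled for RNA. The lines came from separate mammary tumours of the same hyperplastic nodule type, and are used as a proliferative model (D2A1) and a dormant model (D2.OR). Each model is 1 cell line, so a difference between them is a difference between these lines.

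Hox genes encode homeodomain transcription factors that give cells their position along the body axis. In each cluster the genes lie in the order of their paralog numbers, and low-numbered (anterior) and high-numbered (posterior) genes are active in different parts of the embryo. Polycomb complexes keep clusters silent where they are not used, Trithorax complexes keep them active, and HOX proteins bind DNA together with TALE homeodomain cofactors of the PBX, MEIS and PREP families. Several Hox genes are active in the developing and adult mammary gland.

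Library totals of expected counts, the read counts that RSEM estimates per gene, lay between 47589611 and 73325069 with a median of 61747126. Both lines carried mesenchymal Vim (733 to 5310 TPM over the libraries). In D2A1, replicate 1 held 2480 TPM in 2D and 3140 in 3D, against 733 to 1110 in replicates 2 and 3. The 4 mesenchymal markers summed to 2910 to 3460 TPM in D2A1 in 2D, 1610 to 3440 in D2A1 in 3D, 4730 to 5910 in D2.OR in 2D and 3470 to 6220 in D2.OR in 3D, and Cdh2 was at 3 counts or fewer in D2A1. They did not all go the same way. In each culture 2 were called higher and 1 lower in D2.OR (edgeR, adjusted p under 0.05), against 49.8% and 53.8% of all genes called. The 1 called lower had a log2 fold change of -2.68 in 2D and -3.21 in 3D. The 4 basal or myoepithelial markers summed to more in every D2.OR library, at 9.64 to 16.6 TPM in 2D and 9.44 to 45.1 in 3D against 2.47 to 2.95 and 0.61 to 2.33 in D2A1, with Krt5 at 3 counts or fewer in every group. Luminal Krt8 was at 0.78 to 2.31 TPM in D2A1 and 227 to 1020 TPM in D2.OR, whereas luminal Krt18 overlapped, at 92.7 to 294 and 125 to 666 TPM. The 5 luminal markers summed to 205 to 297 TPM in D2A1 in 2D, 94 to 221 in D2A1 in 3D, 1160 to 1710 in D2.OR in 2D and 416 to 875 in D2.OR in 3D, and Krt19 and Epcam stayed within 3 counts in all libraries of D2A1 in 2D. The 5 leukocyte markers summed to 6.9 to 32.2 TPM in D2A1 in 2D, 5.86 to 10.1 in D2A1 in 3D, 2.36 to 5.56 in D2.OR in 2D and 3.87 to 6.99 in D2.OR in 3D, with Cd3e and Adgre1 at 3 counts or fewer in each group but the last. Cd68, a macrophage marker and the 1 leukocyte gene tested, fell by 2.41 ± 0.62 on the log2 scale in D2.OR in 2D (edgeR, adjusted p = 0.0103), with within-batch ratios of -0.29, -2.76 and -3.74. In 3D Cd68 did not pass (-0.55, edgeR, adjusted p = 0.439). The 2 adipocyte markers summed to 6.49 to 77.0 TPM in D2.OR in 3D and to at most 1.61 TPM in each of the other groups, and 3 endothelial markers summed to at most 0.42 TPM. The part of these markers in the Hox values was not tested.

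The 4 clusters lay on chromosomes 6 (HoxA), 11 (HoxB), 15 (HoxC) and 2 (HoxD) of the mouse genome build GRCm38. HoxA spanned 105.3 kb at chr6:52155590-52260880, HoxB 173.9 kb at chr11:96194316-96368256, HoxC 115.8 kb at chr15:102921103-103036852 and HoxD 96.8 kb at chr2:74668310-74765142. TPM, a transcript's share of all transcripts, is scaled for gene length and library size and was used for levels between genes. HoxA carried at least 99.8% of the summed Hox TPM in the D2A1 libraries and 93.9% to 95.6% in the D2.OR libraries. HoxC carried 3.82% to 5.07% in D2.OR and at most 0.0327% in D2A1. HoxD carried 0.549% to 1.28% in D2.OR and 0.0139% to 0.154% in D2A1. HoxB summed to 0.0 TPM in all D2A1 libraries and to 0.0 to 0.07 TPM in the D2.OR libraries.

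**Figure D1:**
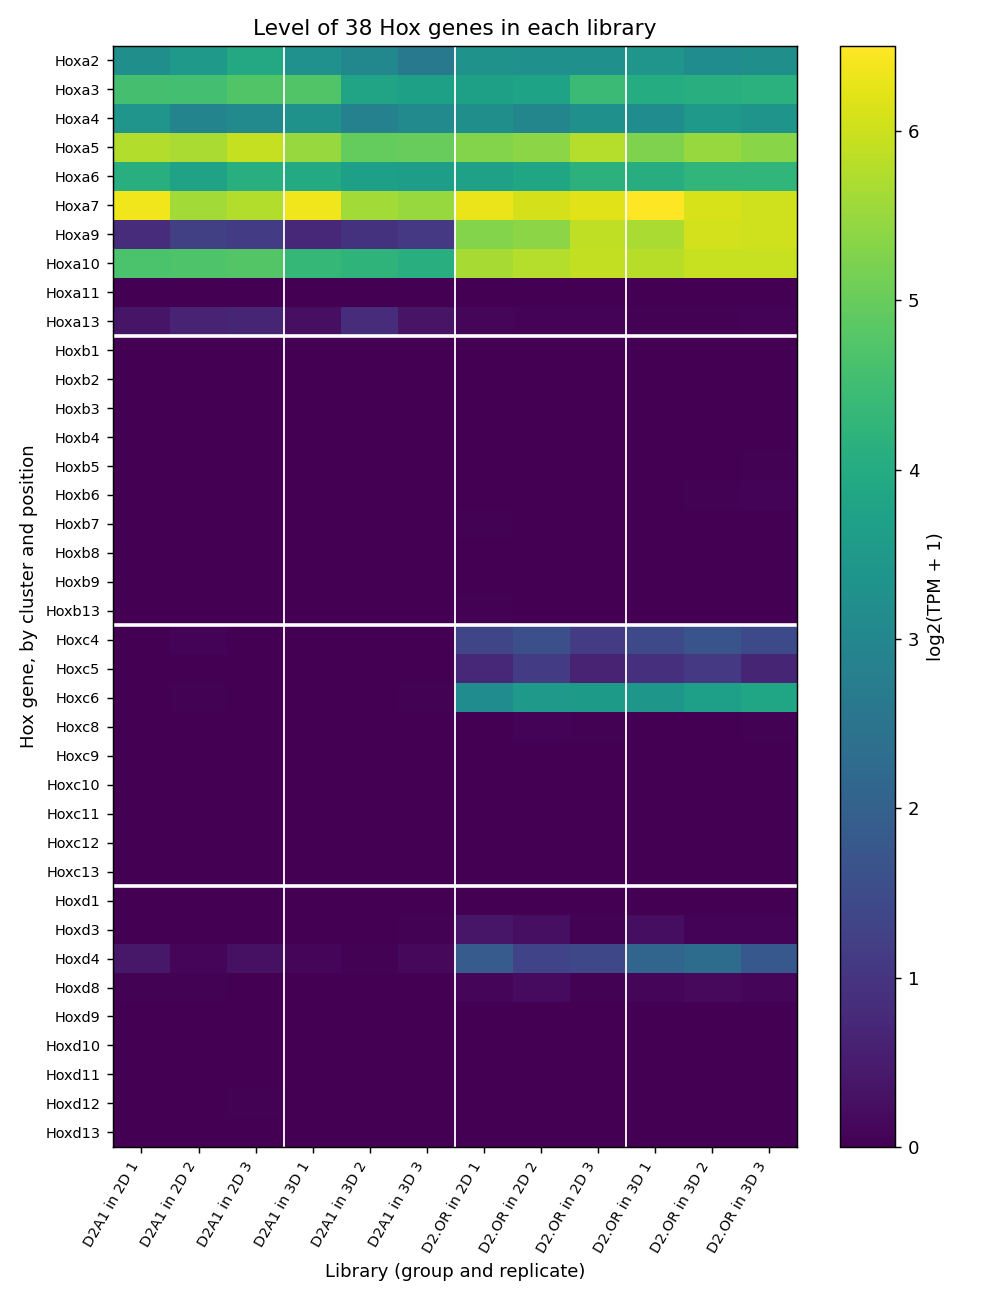
Level of 38 Hox genes (rows, by cluster and paralog number) in each of the 12 libraries (columns), as log2(TPM + 1). Hoxa2 to Hoxa7 and Hoxa10 are bright in all libraries, Hoxa9 and Hoxc6 are much brighter in the 6 D2.OR libraries than in the 6 D2A1 libraries, Hoxc4, Hoxc5 and Hoxd4 are faint in D2.OR, and the HoxB rows are dark throughout.

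Of the 39 genes, 23 had 3 counts or fewer in every library, a level that a count of 0 also allows, and 13 of these had 0 counts in all 12 libraries. They were Hoxa11, the 10 HoxB genes, Hoxc8 to Hoxc13 and, in HoxD, Hoxd1 and Hoxd9 to Hoxd13. Another 5 genes, Hoxc4, Hoxc5, Hoxc6, Hoxd3 and Hoxd8, were at 3 counts or fewer in every D2A1 library and above that in at least 1 D2.OR library. The last 11 genes exceeded 3 counts in at least 1 library of each line. The filter on low counts kept 15 genes for testing, 10 of HoxA, 3 of HoxC and 2 of HoxD. A gene present in 1 line alone could pass it, so the 15 are not a sample of the clusters.

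The sequences that follow show how alike a pair of paralogs of different clusters is in the part that RNA reads could confuse, and what lies before the starts of the genes that differed. The homeobox, the stretch of 180 bases that encodes the DNA-binding homeodomain, was found in the GENCODE M21 transcripts of all 39 genes. Hoxc6, the highest gene outside HoxA in D2.OR, is shown with its paralog Hoxb6, and capitals mark bases that differ from Hoxc6.
Hoxc6: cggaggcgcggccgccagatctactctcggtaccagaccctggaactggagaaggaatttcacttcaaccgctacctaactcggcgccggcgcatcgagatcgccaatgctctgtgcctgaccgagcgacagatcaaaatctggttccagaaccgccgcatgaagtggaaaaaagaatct
Hoxb6: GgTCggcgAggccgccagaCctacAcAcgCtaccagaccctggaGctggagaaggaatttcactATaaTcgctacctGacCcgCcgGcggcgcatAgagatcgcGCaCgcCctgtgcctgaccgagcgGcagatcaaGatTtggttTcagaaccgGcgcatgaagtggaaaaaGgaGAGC

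The Hoxc6 homeobox was 82.8% identical to that of Hoxb6 (31 differences), and the longest exact stretch that whole transcripts of the pair shared was 19 bases. Hoxb6 had at most 2 counts in any library, whereas Hoxc6 reached 565. With Hoxa6, the paralog expressed in both lines, Hoxc6 also shared at most 19 bases. Of the paralog pairs compared, 3 shared longer stretches, with 31 bases for Hoxa9 and Hoxc9, 29 for Hoxd4 and Hoxb4 and 26 for Hoxa7 and Hoxb7, and Hoxc9, Hoxb4 and Hoxb7 had 3 counts or fewer in every library. Hoxa13 and Hoxd3 were not compared.

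RefSeq start sites on GRCm38.p6 were given for 22 of the 39 genes, with 24 starts in all, and the table held 32841 promoters. The 250 bases before the start are shown, on the gene's strand, for Hoxa9, Hoxa10 (both starts), Hoxc4 and Hoxd4, which were higher in D2.OR in both cultures. Capitals mark the TATA box TATAAA, the CCAAT box CCAAT and the GC box GGGCGG, searched on both strands. The windows lie at chr6:52227371-52227620 (minus strand, Hoxa9), chr6:52234940-52235189 and chr6:52240855-52241104 (minus strand, Hoxa10), chr15:103034145-103034394 (plus strand, Hoxc4) and chr2:74721728-74721977 (plus strand, Hoxd4).
Hoxa9: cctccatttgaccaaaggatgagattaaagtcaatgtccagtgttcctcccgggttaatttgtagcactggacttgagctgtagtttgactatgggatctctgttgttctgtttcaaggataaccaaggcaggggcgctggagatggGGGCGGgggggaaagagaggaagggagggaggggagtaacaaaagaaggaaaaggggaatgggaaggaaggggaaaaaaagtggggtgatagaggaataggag
Hoxa10, near start: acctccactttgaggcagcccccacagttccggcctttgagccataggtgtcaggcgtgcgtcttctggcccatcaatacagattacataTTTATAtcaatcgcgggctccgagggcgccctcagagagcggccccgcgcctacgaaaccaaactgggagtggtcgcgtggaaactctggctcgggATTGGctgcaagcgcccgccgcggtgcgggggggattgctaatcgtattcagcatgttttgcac
Hoxa10, far start: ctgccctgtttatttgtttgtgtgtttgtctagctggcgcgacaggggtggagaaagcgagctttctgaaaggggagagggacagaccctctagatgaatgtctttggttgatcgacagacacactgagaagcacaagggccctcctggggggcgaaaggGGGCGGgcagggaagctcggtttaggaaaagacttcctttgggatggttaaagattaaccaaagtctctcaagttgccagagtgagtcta
Hoxc4: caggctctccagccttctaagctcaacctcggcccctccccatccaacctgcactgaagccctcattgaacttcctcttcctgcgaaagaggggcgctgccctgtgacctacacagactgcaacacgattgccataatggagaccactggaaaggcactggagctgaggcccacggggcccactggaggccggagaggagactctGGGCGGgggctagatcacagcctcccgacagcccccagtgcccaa
Hoxd4: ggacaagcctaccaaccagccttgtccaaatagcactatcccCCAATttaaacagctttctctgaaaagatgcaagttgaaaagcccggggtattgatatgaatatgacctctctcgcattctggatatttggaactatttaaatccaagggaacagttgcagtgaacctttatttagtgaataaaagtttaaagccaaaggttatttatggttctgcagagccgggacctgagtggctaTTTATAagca

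A GC box occurred in 32.7% of all promoters and in 10 of the 24 Hox windows, a CCAAT box in 33.9% and 14, and a TATA box in 12.4% and 4. The letters TGATNNAT, the core of a joint HOX and PBX site, occurred in 7.69% of all promoters and in 4 Hox windows, none of them shown here. The letters TTTATNG, bound by posterior HOX and CDX proteins, occurred in 9.81% of all promoters and in 2 Hox windows, those of Hoxb8 and Hoxd4. The median number of CG dinucleotides was 12.5 in the Hox windows and 6.0 in all promoters. The windows of Hoxa9 and Hoxd4 held 3 each, that of Hoxc4 held 8, and the near and far starts of Hoxa10 held 20 and 7.

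The comparison of D2.OR with D2A1 in 2D asked how related lines of different metastatic behaviour differ. The posterior HoxA genes Hoxa9 and Hoxa10, the anterior HoxC genes and 2 HoxD genes were higher in D2.OR, while Hoxa2 to Hoxa6 did not pass the test. Of the 15 Hox genes tested, 8 were called higher and 2 lower in D2.OR (edgeR, adjusted p under 0.05), where 49.8% of all genes tested were called, 25.4% higher and 24.4% lower. In 3D, 7 were called higher and 2 lower, against 53.8% of all genes, 27.7% higher and 26.1% lower. With so many genes called in the whole table, the size of the differences and their place in the clusters say more than the counts.

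**Figure D2:**
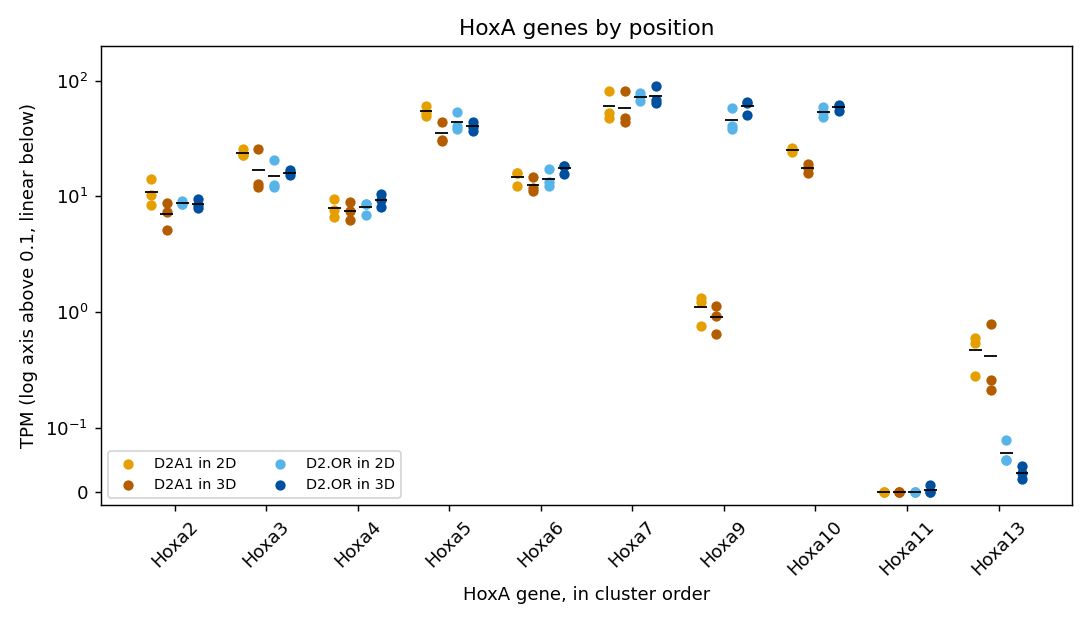
TPM of 10 HoxA genes in cluster order (log axis above 0.1, linear below). Points are libraries, 3 per group, and bars are group means. Hoxa9 sits at 0.65 to 1.33 in D2A1 and at 38.6 to 65.7 in D2.OR, between Hoxa7 and Hoxa10, which are high in both lines.

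Hoxa9, a posterior gene best known in blood-forming cells, showed the widest gap in HoxA. Its level was 0.76, 1.33 and 1.23 TPM in the replicates of D2A1 in 2D and 0.65, 0.93 and 1.13 TPM in D2A1 in 3D. In D2.OR it was 38.6, 40.5 and 58.3 TPM in 2D and 50.1, 65.7 and 64.7 TPM in 3D. Every D2.OR library was far above every D2A1 library, with 1611 to 3373 counts against 41 to 79. The log2 fold change was 5.31 ± 0.16 (SE) in 2D (39.7-fold, adjusted p = 6.77e-08) and 5.66 ± 0.17 in 3D (50.5-fold, adjusted p = 5.76e-08). Within the 3 batches the log2 ratios were 5.35, 5.31 and 5.28 in 2D and 5.5, 5.95 and 5.51 in 3D. No exonic base of Hoxa9 was shared with another gene in the GENCODE M21 annotation apart from the microRNA gene Mir196b.

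Hoxa10, the next posterior gene, differed less, since it was also present in D2A1. It measured 24.4, 25.3 and 26.3 TPM in D2A1 in 2D and 19.1, 17.6 and 15.8 TPM in D2A1 in 3D. In D2.OR it measured 48.9, 53.8 and 58.9 TPM in 2D and 54.4, 61.2 and 60.8 TPM in 3D. The lines did not overlap in either culture, with log2 fold changes of 1.41 ± 0.11 in 2D (adjusted p = 1.3e-05) and 1.91 ± 0.11 in 3D (adjusted p = 2.15e-06). In D2A1, therefore, Hoxa10 stood at 21.4 ± 4.48 TPM (SD, n = 6) and the gene beside it, Hoxa9, at 1.0 ± 0.27 TPM, while in D2.OR they stood at 56.3 ± 4.8 and 53.0 ± 11.8 TPM. Hoxa9 and Hoxa10 together made up 9.21% to 14.5% of the Hox TPM of the D2A1 libraries and 33.1% to 41.0% of that of the D2.OR libraries.

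RSEM also gives each gene a length per library, the mean length of its transcripts weighted by their estimated abundance, which says something of transcript use that the level does not. For Hoxa10, which had 4 transcripts of 2565, 1710, 1436 and 1045 bases, it was 1559, 1553 and 1533 bases in D2A1 in 2D and 1545, 1535 and 1532 bases in D2A1 in 3D. In D2.OR it was 1731, 1713 and 1769 bases in 2D and 1731, 1753 and 1711 bases in 3D. All D2.OR libraries thus had the longer value, and culture did not separate them. Hoxa10 was picked out after the values were seen, so no test was made, and levels of single transcripts were not used here. A length is given even without counts, as for Hoxc5, which had no count in D2A1 and 1769 bases in every D2A1 library. Hoxc4, Hoxc5, Hoxc6 and Hoxd3 were at 3 counts or fewer in D2A1, so their lengths there say nothing of transcript use. The gap for Hoxd3 was therefore not read, at 822 to 1938 bases in D2A1 and 2135 to 2968 in D2.OR on 2 to 27 counts. For the other tested genes with several transcripts the ranges of the lines overlapped. The well-counted Hoxa3 had 2056 to 2453 bases in D2A1 and 2077 to 2553 in D2.OR, and Hoxa7 had 1911 to 1990 and 1904 to 1946.

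**Figure D3:**
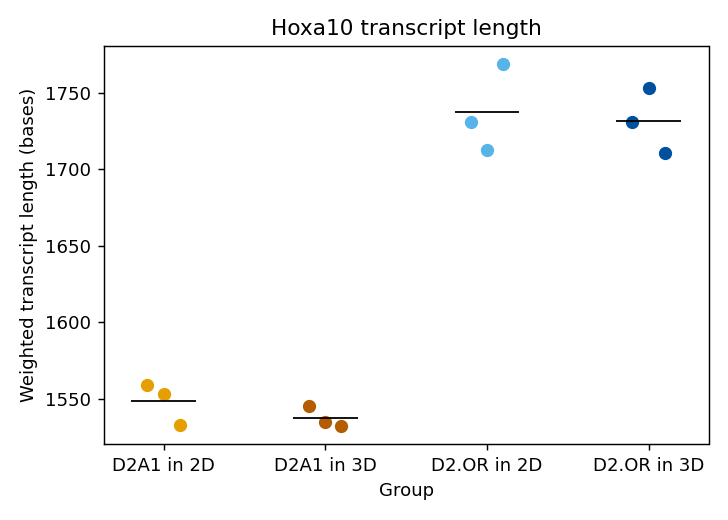
Abundance-weighted transcript length of Hoxa10 in bases (the axis does not start at 0), with 1 point per library and bars for group means. The 6 D2A1 libraries lie at 1532 to 1559 bases and the 6 D2.OR libraries at 1711 to 1769 bases.

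The anterior and middle HoxA genes were expressed at like levels in the lines. Summed, Hoxa2 to Hoxa7 gave 172 ± 21.1 TPM in D2A1 in 2D and 163 ± 17.1 TPM in D2.OR in 2D (SD, n = 3), and 137 ± 41.3 and 166 ± 8.99 TPM in 3D. Hoxa7, the highest Hox gene by the mean of each line, was at 81.5, 47.7 and 53.0 TPM in D2A1 in 2D and 81.5, 47.5 and 43.9 TPM in D2A1 in 3D. It was at 78.4, 66.6 and 73.1 TPM in D2.OR in 2D and 89.7, 67.8 and 64.7 TPM in D2.OR in 3D. Replicate 1 was high in both D2A1 groups, and the lines overlapped. Hoxa7 was called higher in D2.OR in 2D (log2 fold change 0.43 ± 0.13, adjusted p = 0.0261) and not in 3D (0.33 ± 0.13, adjusted p = 0.0657), the within-batch log2 ratios in 2D being 0.05, 0.61 and 0.61. The 2D call was lost without the batch block (0.38, adjusted p = 0.231) and in 11 of 18 alternatives in all, among them those without replicate 2 or 3 of D2A1 in 2D (adjusted p = 0.112 and 0.0771) and without replicate 2 or 3 of D2.OR in 2D (0.0876 and 0.119). The 3D comparison passed in 7 alternatives, including that without replicate 1 of D2A1 in 3D (0.43, adjusted p = 0.0405).

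Hoxa2 to Hoxa6 did not pass the test in either culture with TMM scaling and all libraries. With scaling by the library total alone, which moved the median of all genes to -0.17 in 2D, Hoxa3 passed as lower in D2.OR in 2D (-0.64, adjusted p = 0.0492). Hoxa5, the second highest gene of D2A1 by its mean, was above Hoxa7 in replicates 2 and 3 of D2A1 in 2D (49.8 and 60.4 TPM). It ranged from 30.3 to 60.4 TPM in D2A1 and from 37.1 to 53.9 TPM in D2.OR, with log2 fold changes of -0.17 ± 0.17 in 2D and 0.18 ± 0.17 in 3D. Hoxa3 ranged from 12 to 25.9 TPM and from 12 to 20.7 TPM, Hoxa6 from 11.2 to 16 and from 12.3 to 18.4 TPM, Hoxa2 from 5.16 to 14.2 and from 7.89 to 9.43 TPM, and Hoxa4 from 6.2 to 9.42 and from 6.95 to 10.5 TPM. The smallest adjusted p among Hoxa2 to Hoxa6 was 0.0738, for Hoxa6 in 3D (log2 fold change 0.43 ± 0.18), which passed in 5 of 18 alternatives. It passed with DESeq2 (0.46, adjusted p = 0.0281) and with limma at either pseudocount (0.0485 and 0.0436). Without batch 1, Hoxa4, Hoxa5 and Hoxa6 all passed in 3D (0.52, 0.44 and 0.63, adjusted p = 0.0307, 0.0363 and 0.0174). Without replicate 1 of D2A1 in 3D, Hoxa5 (0.41, adjusted p = 0.0465) and Hoxa6 (0.56, adjusted p = 0.0487) passed in 3D, and without replicate 1 of D2.OR in 3D, Hoxa4 passed (0.52, adjusted p = 0.0345). A miss of the threshold does not show that the levels were equal.

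The 5′ end of HoxA was nearly silent. Hoxa13, active in distal limb and urogenital tissue, was at 0.28, 0.54 and 0.6 TPM in D2A1 in 2D, and at 0.21, 0.78 and 0.26 TPM in D2A1 in 3D. In D2.OR it was at 0.08, 0.05 and 0.05 TPM in 2D and 0.03, 0.02 and 0.04 TPM in 3D. D2A1 was the higher line throughout, but on 13 to 45 counts against 1 to 5. It fell by 3.4 ± 0.65 on the log2 scale in D2.OR in 2D (adjusted p = 0.00225), and in 3D, where D2.OR was at 3 counts or fewer, it was at least 8.43-fold lower (adjusted p = 0.00236). The 3D size rests in part on replicate 2 of D2A1, which held 45 counts against 13 and 23 in the others: without it the fitted log2 value moved from -3.3 to -2.62 (adjusted p = 0.0104), and without batch 2 to -2.62 (0.0428), both smaller than that bound. The D2.OR libraries in 2D held 5, 1 and 1 counts, the within-batch log2 ratios were -2.34, -4.48 and -4.86, and the value was -4.68 without replicate 1 of D2.OR in 2D and -4.56 without batch 1. Hoxa13 and Hoxa9 thus differed in opposite directions within the cluster, while Hoxa11 between them had at most 1 count in any library.

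**Figure D4:**
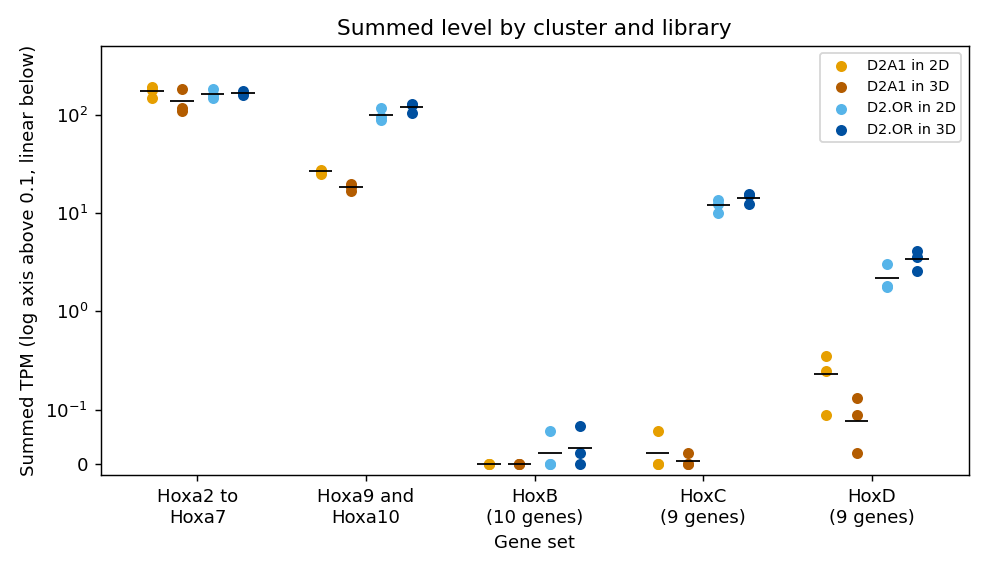
Summed TPM of Hoxa2 to Hoxa7, of Hoxa9 and Hoxa10, and of the HoxB, HoxC and HoxD genes (log axis above 0.1, linear below), with 1 point per library and bars for the means of 3. Hoxa2 to Hoxa7 overlap between the lines, whereas Hoxa9 and Hoxa10 sum to 16.9 to 27.6 in D2A1 and 87.5 to 127 in D2.OR, and HoxC and HoxD are higher in D2.OR.

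In HoxC, transcripts came from the anterior end and in D2.OR. Hoxc6, a middle gene known to be expressed in the mammary gland, was at 7.88, 10.2 and 10.6 TPM in D2.OR in 2D and 9.78, 11.8 and 13.2 TPM in D2.OR in 3D, on 377 to 565 counts. The 6 D2A1 libraries held 0 or 1 count each. In D2.OR, Hoxc6 exceeded its D2A1 level by at least 130-fold in 2D (adjusted p = 1.02e-06) and by at least 177-fold in 3D (adjusted p = 8.16e-07), taking 3 counts per library as the most that D2A1 could hold. Hoxc4 was at 1.55, 1.98 and 1.2 TPM in D2.OR in 2D and 1.71, 2.24 and 1.73 TPM in 3D, with 0 counts in 5 D2A1 libraries and 3 counts in replicate 2 of D2A1 in 2D. It was at least 35.1-fold higher in 2D (adjusted p = 0.00015) and at least 49.5-fold higher in 3D (adjusted p = 6.94e-05). Hoxc5 was at 0.66, 1.18 and 0.57 TPM in D2.OR in 2D and 0.83, 1.11 and 0.6 TPM in 3D, with no count in D2A1, and was at least 15.4-fold higher in 2D (adjusted p = 0.0004) and at least 25.3-fold higher in 3D (adjusted p = 0.00024). The 3 genes lie next to each other, and Hoxc8, the next in the cluster, had at most 3 counts in any library.

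In HoxD, Hoxd4 was the leading gene in both lines. It was at 0.33, 0.06 and 0.22 TPM in D2A1 in 2D and 0.09, 0.02 and 0.11 TPM in D2A1 in 3D, on 2 to 14 counts. In D2.OR it was at 2.62, 1.47 and 1.68 TPM in 2D and 3.32, 3.88 and 2.45 TPM in 3D, on 71 to 242 counts. The lines were well apart, with log2 fold changes of 3.42 ± 0.5 in 2D (adjusted p = 0.000507) and 5.13 ± 0.54 in 3D (adjusted p = 7.35e-05). The within-batch ratios were 3.22, 4.42 and 3.1 in 2D and 4.83, 6.95 and 4.11 in 3D, and the 3D value was 4.42 without batch 2 and 5.79 without batch 3. Hoxd3 was at 0.31, 0.21 and 0.03 TPM in D2.OR in 2D and 0.18, 0.04 and 0.05 TPM in 3D, on 2 to 27 counts, and had at most 1 count in D2A1. It exceeded the D2A1 level by at least 4.95-fold in 2D (adjusted p = 0.00661) and by at least 3.42-fold in 3D (adjusted p = 0.0176). Without batch 2 the calls were lost in 2D (adjusted p = 0.0604) and in 3D (0.0685). The 3D call was also lost without replicate 1 or 2 of D2A1 in 3D (adjusted p = 0.0864 and 0.0682) and without replicate 1 of D2.OR in 3D (0.0663), and with limma at either pseudocount (0.255 and 0.111). Hoxd8 had 2 to 12 counts in D2.OR and 0 to 3 in D2A1, and did not pass the filter. It was called between the lines in 3D in 7 alternatives that let it pass, namely with no filter, without batch 3, without replicate 1, 2 or 3 of D2A1 in 3D and without replicate 1 or 3 of D2.OR in 3D.

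The annotation limits the HoxD values. In GENCODE M21, Hoxd3 and Hoxd4 shared 62.3% and 52.3% of their exonic bases with genes on the same strand, each other and Gm28230 among them, and RSEM divides such reads. Gm28230 itself had at most 3 counts in D2A1 and was at 0.31 to 0.6 TPM in D2.OR. On the opposite strand, Hoxd3os1 overlapped 11.8% of the exonic bases of Hoxd4, and Hoxd3os1 and Haglr 8.8% of those of Hoxd3. In HoxA, antisense genes overlapped 25.4% of Hoxa3, 20.4% of Hoxa7 and 16% of Hoxa4, and the strand setting of the counting is not given in the sources used here. Hoxa5, Hoxa6, Hoxa10, Hoxc4 and Hoxc6 shared no exonic base with another gene.

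**Figure D5:**
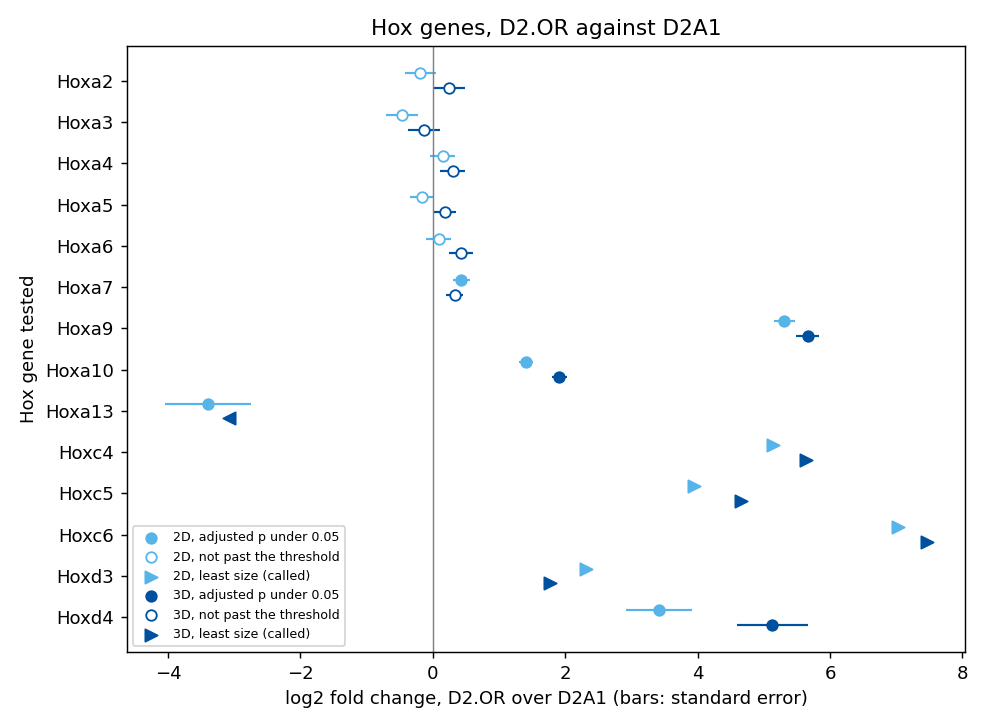
Log2 fold change of D2.OR over D2A1 in 2D (light) and 3D (dark) for 14 of the Hox genes tested, with standard errors. Filled circles passed the threshold and open circles did not, and triangles give the least size where a line was at 3 counts or fewer in every library. Hoxa2 to Hoxa7 lie between -0.47 and 0.43, and the genes of the other clusters and Hoxa9 lie well to the right.

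In order of level, D2A1 ran from Hoxa7 (59.2 ± 17.5 TPM, SD, n = 6) and Hoxa5 (44.7 ± 12.2) through Hoxa10 (21.4 ± 4.48), Hoxa3 (20.4 ± 6.3), Hoxa6 (13.7 ± 2.1), Hoxa2 (9.03 ± 3.07) and Hoxa4 (7.73 ± 1.26) to Hoxa9 (1.0 ± 0.27). Neighbours in that order differed by less than the larger SD of the pair, except Hoxa5 and Hoxa10, Hoxa3 and Hoxa6 (by little), Hoxa6 and Hoxa2, and Hoxa4 and Hoxa9. D2.OR ran from Hoxa7 (73.4 ± 9.46 TPM) through Hoxa10 (56.3 ± 4.8), Hoxa9 (53.0 ± 11.8) and Hoxa5 (42.3 ± 6.26) to Hoxa6 (15.8 ± 2.58), Hoxa3 (15.6 ± 3.14), Hoxc6 (10.6 ± 1.8), Hoxa2 (8.66 ± 0.547), Hoxa4 (8.66 ± 1.21) and Hoxd4 (2.57 ± 0.927). There the pairs that did not differ by more than that were Hoxa10 and Hoxa9, Hoxa9 and Hoxa5, Hoxa6 and Hoxa3, and Hoxa2 and Hoxa4.

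The comparisons of 3D with 2D asked what culture on Matrigel changes in each line. No Hox gene passed in either line (edgeR, adjusted p under 0.05), where 1.62% of all genes tested were called in D2.OR and 3.48% in D2A1. At an unadjusted p under 0.05 there were 1 of 15 Hox genes in D2.OR and 3 in D2A1, against 17.6% and 31.4% of all genes. DESeq2 called 0 in D2.OR, against 7.82% of all genes, and 2 in D2A1 (Hoxa5 and Hoxa10), against 23.6%. In D2A1, limma on log2(TPM + 1) or log2(TPM + 0.1) called Hoxa10, against 4.52% and 6.75% of all genes, and in D2.OR they called 0 Hox genes, against 1.69% and 1.29%. Hoxc4, Hoxc5, Hoxc6 and Hoxd3 had 3 counts or fewer in all D2A1 libraries, so they carry no value for that line, though they count among the 15.

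Hoxa10 came nearest to the threshold in D2A1, where its log2 fold change was -0.44 ± 0.11 (adjusted p = 0.0534), with within-batch ratios of -0.34, -0.39 and -0.59. In D2.OR it was 0.07 ± 0.11, with ratios of 0.02, 0.19 and -0.01. Hoxa5 had -0.52 ± 0.17 in D2A1 (adjusted p = 0.0836) and -0.17 ± 0.17 in D2.OR. In D2.OR the smallest adjusted p was 0.185, for Hoxa9 (0.38 ± 0.13). Without batch 1, 4 genes passed in D2A1 (Hoxa2, Hoxa3, Hoxa5 and Hoxa10), where 36.3% of all genes were called. Without replicate 1 of D2A1 in 2D alone 2 passed (Hoxa2 and Hoxa10), against 30.3% of all genes, and without replicate 1 of D2A1 in 3D alone 3 passed (Hoxa3, Hoxa5 and Hoxa10), against 12.8%.

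The interaction of cell line and culture asked whether the lines responded differently to 3D. It was passed by none of the 15 genes in edgeR (2 at an unadjusted p under 0.05, against 17.8% of all genes), where 0.0238% of all genes were called. DESeq2 called 1 of them, Hoxa10, and 6.17% of all genes, and limma called 0, against 0.0773% and 0.0535% of all genes at the pseudocounts of 1 and 0.1. The Hoxa10 interaction was 0.51 ± 0.15 on the log2 scale (adjusted p = 0.161), and it passed in edgeR when batch 1 was left out, where 17.8% of all genes were called. For Hoxd4 it was 1.71 ± 0.73 (adjusted p = 0.266). Hoxc4, Hoxc5, Hoxc6 and Hoxd3 were at 3 counts or fewer in every D2A1 library, so they had no D2A1 response to compare. The interaction could be read only for the 11 genes that exceeded 3 counts in both lines.

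Among noncoding genes within the clusters, 32 of 43 were at 3 counts or fewer in every library and 5 were tested, of which 2 were called higher and 1 lower in D2.OR in each culture, near the 49.8% and 53.8% of all genes called in 2D and 3D. Hotairm1, a noncoding RNA of HoxA, was at 67.2 to 97.5 TPM in D2A1 and 26.9 to 43.5 TPM in D2.OR, and it fell by 0.9 ± 0.2 on the log2 scale in 2D (adjusted p = 0.00493) and by 1.12 ± 0.2 in 3D (adjusted p = 0.00145), the 2D call being lost without batch 3 (0.0546). Hoxd3os1, in HoxD, was at 0.08 to 1.42 TPM in D2A1 and 2.49 to 5.05 TPM in D2.OR, higher by 3.05 ± 0.4 in 2D (adjusted p = 0.000299) and 4.39 ± 0.45 in 3D (adjusted p = 6.72e-05). It overlaps exons of Hoxd3 and Hoxd4 on the opposite strand, so these values may share reads. Hoxaas3 was at 2.74 to 3.67 TPM in D2A1 and 3.23 to 5.16 TPM in D2.OR (0.61 ± 0.23 in 2D, adjusted p = 0.0486), a call lost in 12 of 18 alternatives, among them those without replicate 2 or 3 of D2A1 in 2D (adjusted p = 0.165 and 0.136) and without replicate 1, 2 or 3 of D2.OR in 2D (0.0537, 0.206 and 0.0846). Hoxaas3 overlaps exons of Hoxa3 and Hoxa7 on the opposite strand, and Hotairm1 those of a HoxA gene, so these too may share reads. Of 3 other protein-coding models in the clusters, 1 was called higher in 2D and 3 in 3D, against 25.4% and 27.7% of all genes. In D2.OR, Gm28230 exceeded its D2A1 level by at least 16.1-fold in 2D (adjusted p = 0.000383), whereas Gm28308 (1.91 ± 0.92, adjusted p = 0.114, 1.11 and 2.57 without replicate 1 or 3 of D2A1 in 2D, 2.51 without replicate 2 of D2.OR in 2D, 0.86 and 2.64 without batch 1 or 2) and 5730596B20Rik (-0.44 ± 0.26, adjusted p = 0.181) did not pass there.

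The genes that flank the clusters, 5 on each side, were counted too, and 34 of 40 passed the filter on low counts. Of the 10 neighbours of HoxB, 8 passed, with mean levels over the 12 libraries of 0.0533 to 285 TPM and a median of 63.1 TPM, while no HoxB gene exceeded 3 counts in any library. The medians of those that passed around HoxA (9 of 10), HoxC (8 of 10) and HoxD (9 of 10) were 47.5, 64.0 and 38.9 TPM, which the filter in part sets. Of 34 neighbours tested, 6 were called higher and 10 lower in D2.OR in 2D, and 4 and 11 in 3D, against 49.8% and 53.8% of all genes called in either direction. The smallest p belonged to Nfe2l3, a bZIP factor gene beside HoxA, higher by 4.87 ± 0.47 in 2D (adjusted p = 5.06e-05), and by 4.19 without batch 2. Jazf1, on the other side of HoxA, fell by 4.53 ± 0.58 (adjusted p = 0.000239), and Atp5g1 beside HoxB, an ATP synthase subunit gene, fell by 0.8 ± 0.12 (adjusted p = 0.000492).

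Of the 9 TALE cofactor genes, 7 were tested, and 1 was called higher and 4 lower in D2.OR in 2D, with 0 and 3 in 3D, where 49.8% and 53.8% of all genes were called. Pbx3 was at 38.2 to 41.9 TPM in D2A1 in 2D and 16.9 to 18.6 TPM in D2.OR in 2D, and it fell by 1.07 ± 0.11 on the log2 scale (adjusted p = 8.5e-05). Meis2 was at 0.27 to 0.81 TPM in D2A1 in 2D and at 3 counts or fewer in D2.OR, at least 15.1-fold lower (adjusted p = 0.000284). Pbx4 fell by 2.81 ± 0.45 (adjusted p = 0.000922), and by 3.43 without batch 2.

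All 31 Polycomb genes listed were tested, and 4 were called higher and 12 lower in D2.OR in 2D, and 5 and 13 in 3D (median -0.29 and -0.24). Both directions together, the 16 and 18 calls compare with 49.8% and 53.8% of all genes, near the background. By direction the list leaned to lower, whereas 25.4% and 27.7% of all genes were called higher and 24.4% and 26.1% lower. This lean was not tested. Cbx2, a chromodomain subunit of the repressive complex PRC1, was at 7.3 to 14.1 TPM in D2A1 in 2D and 2.0 to 3.64 TPM in D2.OR in 2D. It fell by 1.74 ± 0.12 in 2D (adjusted p = 7.93e-06) and by 1.63 ± 0.12 in 3D (adjusted p = 1.04e-05). Suz12, a core subunit of PRC2, fell by 0.7 ± 0.1 in 2D (adjusted p = 0.000611), and Bmi1, another PRC1 subunit, was higher by 0.84 ± 0.12 (adjusted p = 0.000488). Of 14 Trithorax genes, 3 were called higher and 5 lower in 2D, and 4 and 4 in 3D (median -0.1 and 0.07). Both directions together, these were also near the 49.8% and 53.8% of all genes. The smallest p in 2D belonged to Rbbp5 (-0.61 ± 0.1, adjusted p = 0.00121), Psip1 (-0.46 ± 0.09, 0.00277) and Men1 (0.42 ± 0.1, 0.00616). The calls of Psip1 and Men1 were lost without batch 2 (adjusted p = 0.0859 and 0.0987), and that of Men1 also without batch 3 (0.06).

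Of 9 upstream regulators of Hox genes, 6 were tested, and 4 were called higher and 0 lower in D2.OR in 2D, and 3 and 0 in 3D, against 25.4% and 27.7% of all genes called higher. The retinoic acid receptor genes Rarg (0.87 ± 0.13, adjusted p = 0.000605) and Rarb (1.17 ± 0.26, adjusted p = 0.00506) were higher in 2D, as was Egr2, the hindbrain factor gene Krox20 (2.87 ± 0.83, adjusted p = 0.0179). Egr2 varied widely within groups, from 1.71 to 8.78 TPM in D2A1 in 2D and from 12.9 to 19.8 TPM in D2.OR in 2D. Its call was lost in 7 of 18 alternatives, namely without the batch block (2.03, adjusted p = 0.195), without batch 2 or 3 (0.126 and 0.154), without replicate 2 or 3 of D2A1 in 2D (0.0546 and 0.0685) and without replicate 2 or 3 of D2.OR in 2D (0.0889 and 0.0771), and the value rose to 3.57 without replicate 1 of D2.OR in 2D. Of 41 other homeobox genes of the Hox class, 12 were tested, and 5 were called higher and 5 lower in 2D, and 4 and 5 in 3D, against 49.8% and 53.8% of all genes called in either direction. Genes present in 1 line alone could enter these counts. Nkx2-2 was at 2.45 to 3.08 TPM in D2.OR in 2D with no count in D2A1, at least 54.0-fold higher (adjusted p = 7.21e-05). Dlx5, a distal-less gene, was at 3.49 to 9.87 TPM in D2A1 in 2D with no count in D2.OR in 2D, at least 91.9-fold lower (adjusted p = 8.5e-05), and Dlx4 fell by 2.23 ± 0.26 (adjusted p = 0.000151).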

How the data were processed

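Expected counts per gene were deposited by the authors, who trimmed reads with Trimmomatic 0.32, aligned them with STAR 2.5.3 to GRCm38 (GENCODE M15) and counted them with RSEM 1.3.0, which shares reads that fit several genes. The deposited TPM values are scaled for length and depth, and FPKM was not used. Counts were rounded (10.7% to 11.8% of a library's values were not whole). edgeR 4.0.16 (R 4.3.3) fitted all 12 libraries with TMM scaling, its low-count filter (16823 of 52550 genes kept), the 4 groups and the batch as a block, with Benjamini-Hochberg adjustment over all genes tested, and was tested on simulated data. Replicate numbers are batches in the labels, and deviations of same-numbered libraries correlated at 0.076 to 0.51 (18 pairs). The labels do not say whether replicates were separate cultures, so p-values measure the spread between these libraries. The paper says in general that its findings had at least 3 biological repeats unless a legend states otherwise, without naming these libraries. Fold changes against a group at 3 counts or fewer in every library are lower bounds, covering counting error only. Exon overlaps and transcripts came from GENCODE M21 and promoters from RefSeq (GRCm38.p6). Values per library are given for Hox genes called in any contrast and the highest of each cluster, and each gene list is shown by its 3 genes with the smallest p in 2D. The members and lists were chosen with earlier results of these data known. Alternatives used DESeq2 1.42.0, limma 3.58.1, other scalings and filters, and fewer libraries. Some items, a gene among them, are counted in the totals but not reported here, and the levels by order and the figures leave that gene out.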

Additional observations from a re-analysis of the deposited data

How the results depend on the processing

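With at least 10 counts in every library, which removes genes absent from D2A1, 3 Hox genes were called between the lines in 2D and 4 in 3D, against 10 and 9. Leaving out a batch or library gave 7 to 9 in 2D, 7 to 12 in 3D, 0 to 4 for 3D against 2D in D2A1 and 0 to 1 for the interaction. The shares of all genes called in those fits were 24.9% to 53.8%, 31.0% to 56.9%, 0.0% to 36.3% and 0.0% to 17.8%. Hoxd8 was among the calls in 3D in 6 of them. For 3D against 2D in D2A1, where the main count was 0, DESeq2 called 2, its size factors in edgeR 1, and limma on log2(TPM + 1) and log2(TPM + 0.1) 1 each. For the interaction DESeq2 called 1. Without the replicate block 9 Hox genes were called in 2D and 9 in 3D, and the call of Hoxa7 in 2D was the one lost among those of the Hox genes. No Hox gene was called for 3D against 2D in D2.OR under the alternatives run. Signs turned among genes that passed in neither fit. Hoxa2 in 2D lay between -0.41 and 0.1 (log2) with a batch or library left out, Hoxa3 in 3D between -0.39 and 0.25, and Hoxa6 in 2D between -0.04 and 0.26. With limma Hoxa3 in 3D was 0.01 at either pseudocount and Hoxa6 in 2D was -0.05 at either, and with the library total alone Hoxa4 and Hoxa6 in 2D were -0.01 and -0.08. The calls of Hoxa9, Hoxa10, Hoxa13, Hoxc4, Hoxc5, Hoxc6 and Hoxd4 held in both cultures under every alternative in which they were tested. Without members that overlap another gene, summed TPM fell from 186 to 80.2 (HoxA in D2A1), from 279 to 114 (HoxA in D2.OR), from 0.155 to 0.0133 (HoxD in D2A1) and from 2.8 to 0.0933 (HoxD in D2.OR), since fewer genes are summed. Depth limits Hoxa13, Hoxd3 and Hoxd8, which rest on at most 45 counts per library.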
